A study of Mus musculus with 11 samples.

Results

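Genes of regulatory T cells and of T cell costimulation were followed across MC38 tumours with and without knockdown of Fgf21. The set held 10 of the 55487 genes in the deposited table, taken by gene name: the transcription factors Foxp3 and Ikzf2, the CD28 family receptors Cd28, Icos and Ctla4, the TNF receptor family members Tnfrsf18, Tnfrsf4, Tnfrsf9 and Cd27, and the ligand Cd40lg. All 10 were found, each under 1 identifier. The series asked how FGF21, a secreted hormone that its title places in the tumour, acts on T cells there. The mouse colon carcinoma line MC38 was given either a short hairpin RNA against Fgf21 (shFgf21) or a control one (shNC), and RNA was sequenced in bulk from 11 libraries in 4 groups.

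The libraries titled as T cells, sorted from the tumours, numbered 3 for shNC (genotype label WT) and 2 for shFgf21 (genotype label FGF21 Knockdown in replicate 1). They are called sorted libraries or sorted cells here, and the share of T cells in them was not measured. The genotype label of shFgf21 replicate 2 names FGF22, while its title follows the pattern of replicate 1, so it was kept in that group. Libraries labelled as MC38 tumours numbered 3 for each hairpin and carry the cell type label mesenchymal cell. They are called tumour libraries after that label, and whether they came from grown tumours or from cultured MC38 cells is not given in the sources used here. Titles in the sorted groups join several numbers, and neither the pooling, the sorting markers, nor the strain, sex and age of the mice are given in the sources used here. Separate animals are not stated for the libraries of a group, and each p-value therefore measures only library-to-library spread, which may be technical. In a bulk library, fewer cells of a type and less RNA per cell cannot be told apart.

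Full activation of a T cell needs a signal from its antigen receptor and a second one from costimulatory receptors. CD28 gives that signal on binding CD80 or CD86, CTLA-4 competes for the same ligands and restrains it, and receptors of the TNF family such as OX40 and 4-1BB add to it after activation. Regulatory T cells are CD4+ cells defined by the factor FOXP3. They hold high levels of CTLA-4, GITR, OX40 and ICOS, and in tumours they restrain CD8+ T cells. Most of these receptors also rise on other T cells once these are activated, so the receptors alone do not name a regulatory cell.

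Total counts per library ran from 14944013 to 19099350, and a count of 0 allows up to 3 counts, or 0.157 to 0.201 CPM, the unit of counts scaled to a common library size; these limits cover counting error only. Fgf21, the targeted gene, had 0, 2 and 1 counts in shNC tumours and 0 in every other library, so its knockdown could not be checked at this depth. The CD3 chains Cd3d, Cd3e and Cd3g, which carry the T cell receptor signal, summed to 92.4 to 181 CPM in shNC and 88.2 to 110 CPM in shFgf21 sorted cells. Far more counts in the same sorted libraries came from macrophage genes: the 12 listed, of which edgeR called none between hairpins, summed to 11219 to 13675 CPM in shNC and 17496 to 19068 CPM in shFgf21. The 8 tumour and stromal genes listed, such as Fn1 and Vim, summed to 11187 to 13340 CPM in the sorted libraries, against 12902 to 16041 CPM in the tumour libraries, and as macrophages also make some of these genes the share of tumour cell RNA among the sorted cells was not measured. The libraries labelled as tumours held almost no leukocyte RNA, with Cd3e at 0 in all 6 and at most 0.390 CPM of summed CD3.

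In the deposited mm10 table, Cd28 (chr1:60716800-60773359), Ctla4 (chr1:60887000-60915832) and Icos (chr1:60977927-61000320) lie side by side on chromosome 1, with gaps of 113640 and 62094 bases. Ikzf2 lies further along it (chr1:69531214-69687245). Tnfrsf4 (chr4:156013843-156016612) and Tnfrsf18 (chr4:156026164-156028895) are 9551 bases apart on chromosome 4, which also holds Tnfrsf9 (chr4:150914562-150946102). Cd27 is on chromosome 6 (chr6:125232622-125237010), and Foxp3 (chrX:7573644-7595245) and Cd40lg (chrX:57212143-57224042) are on X. All are protein-coding, and the counts are per gene. Cd28, Tnfrsf4 and Cd40lg overlap no other listed gene. Foxp3 overlaps the ends of Ccdc22 and Ppp1r3f and the antisense RNA Flicr and lies inside the transcript Gm36995, Tnfrsf18 lies inside the antisense Gm16008, Cd27 lies inside Vamp1, and most of Tnfrsf9 lies inside Camta1. Ctla4, Icos and Ikzf2 overlap a pseudogene or predicted transcripts. The strand of the reads is not given in the sources used here, so reads from such overlaps cannot be told apart.

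**Figure D1:**
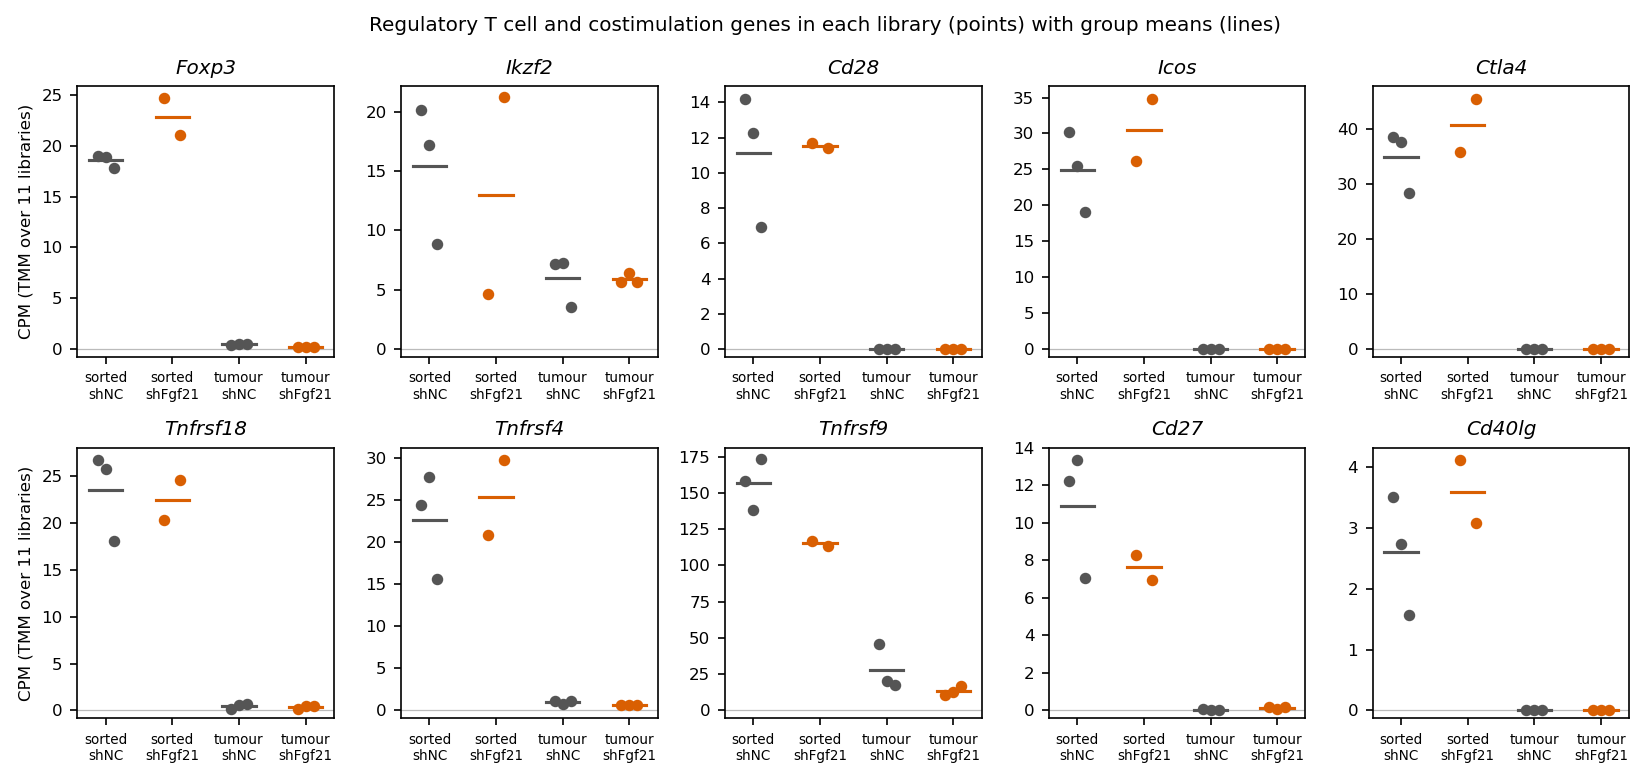
CPM of the 10 genes in each of the 11 libraries, by group. Points are libraries and horizontal bars are group means. In tumours Cd28, Icos, Ctla4 and Cd40lg lie at 0, and Ikzf2 and Tnfrsf9 keep clear levels.

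Foxp3, the factor that defines regulatory T cells, was found in all 5 sorted libraries. Its level was 19.01, 18.89 and 17.8 CPM in shNC and 24.7 and 21.1 CPM in shFgf21. Both shFgf21 libraries lay above all 3 shNC libraries, by a small margin for replicate 2. The log2 fold change was 0.28 ± 0.13 (SE, n = 3 and 2), with a 95% interval of -0.03 to 0.59, and it did not pass the threshold (edgeR quasi-likelihood test, adjusted p = 0.485). Across all 16454 genes tested, 14.5% were likewise higher in both shFgf21 libraries than in every shNC library. Macrophage genes, 12 of 12 of which were higher in shFgf21, and Cd4, at 22.5 to 39.9 CPM in shNC and 42.6 to 43.0 CPM in shFgf21, moved the same way, and their part in the Foxp3 difference was not tested.

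Ikzf2 encodes Helios, an Ikaros family factor found in most regulatory T cells of thymic origin. It gave 20.2, 17.2 and 8.87 CPM in shNC and 4.61 and 21.3 CPM in shFgf21. The shFgf21 pair held both the lowest and the highest sorted library, so no common direction exists in that group. The log2 fold change was -0.27 ± 0.57, with an interval of -1.58 to 1.05 (edgeR adjusted p = 0.893). That replicate 1 was the highest sorted library for Foxp3 and the lowest for Ikzf2, while the other 4 libraries stood in the same order for both genes.

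Among the CD28 family, Cd28 itself, the main costimulatory receptor of T cells, was at 14.2, 12.3 and 6.93 CPM in shNC and 11.7 and 11.4 CPM in shFgf21. Its shFgf21 libraries lay within the shNC range, and the log2 fold change was 0.03 ± 0.28 (-0.62 to 0.69; edgeR adjusted p = 0.980). Icos, an inducible receptor of activated and follicular helper T cells, gave 30.1, 25.4 and 19.1 CPM in shNC against 26.2 and 34.9 CPM in shFgf21. The groups overlapped, with a log2 fold change of 0.28 ± 0.21 (-0.21 to 0.76; edgeR adjusted p = 0.670). Ctla4, the inhibitory member of the family, gave 38.7, 37.8 and 28.5 CPM in shNC and 35.9 and 45.6 CPM in shFgf21. It overlapped as well, with a log2 fold change of 0.20 ± 0.17 (-0.19 to 0.60; edgeR adjusted p = 0.704). Each of the 3 genes had its lowest sorted level in shNC replicate 3, the shNC library with the lowest CD3 sum. So had Foxp3, Tnfrsf18, Tnfrsf4 and Cd40lg. The lowest CD3 sum of all sorted libraries, 88.2 CPM, was that of shFgf21 replicate 1.

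Tnfrsf9, which encodes 4-1BB, a receptor induced on T cells by antigen and also made by activated myeloid cells, was the highest of the 10 per length of transcript. It gave 159, 138 and 173 CPM in shNC and 117 and 114 CPM in shFgf21, so both shFgf21 libraries lay below every shNC library. The log2 fold change was -0.46 ± 0.11, with an interval of -0.73 to -0.20. Its unadjusted p of 0.00373 became an adjusted p of 0.250 (edgeR), so it did not pass. The DESeq2 Wald test, which called 246 of all genes where edgeR called 13, gave it an adjusted p of 0.0449 at the same size. Leaving out any 1 library kept it between -0.55 and -0.39, with edgeR adjusted p of 0.267 to 0.777. Of all genes tested, 15% were lower without overlap. Marker sums of dendritic cells (9 genes, 234 to 306 CPM in shNC against 199 to 224 CPM) and neutrophils (6 genes, 76.8 to 150.1 against 61.0 to 69.7 CPM) were lower in shFgf21 too. Of their tested genes, 6 of 8 and 4 of 5 had lower values, with Zbtb46 (0.76) and Csf3r (0.26) among those with log2 fold changes above 0, and edgeR called none. By gene, 5 natural killer and innate lymphoid genes were lower and 3 higher (median log2 fold change -0.65). For T cell identity genes 14 were lower and 4 higher (median -0.32). The sums of both these lists overlapped between hairpins, and edgeR called none of their genes. Fscn1, the gene with the most counts in the dendritic sum, had 15283 counts over the 3 shNC tumour libraries against 6973 over the 3 shNC sorted ones. Tnfrsf9 itself was also counted in the tumour libraries, at 17.3 to 46.1 CPM in shNC and 10.9 to 16.9 CPM in shFgf21. The part of these cell types and of tumour cells in the sorted Tnfrsf9 difference was not tested.

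Tnfrsf9 and Foxp3 were the members whose sorted groups separated, in opposite directions, so the promoter of each is shown: the 250 bases before its first listed start in RefSeq (GRCm38.p6), 5′ to 3′, with GGAAA, the core of the sites of NFAT, or its reverse complement TTTCC in capitals. NFAT is the calcium-driven factor that T cell receptor signals activate.
Foxp3 chrX:7579426-7579675, plus strand: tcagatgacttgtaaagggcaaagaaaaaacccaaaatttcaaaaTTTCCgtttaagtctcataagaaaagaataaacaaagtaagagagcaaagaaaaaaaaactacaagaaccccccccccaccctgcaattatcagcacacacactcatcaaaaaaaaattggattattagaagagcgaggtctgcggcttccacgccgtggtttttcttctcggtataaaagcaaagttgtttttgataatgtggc
Tnfrsf9 chr4:150919905-150920154, plus strand: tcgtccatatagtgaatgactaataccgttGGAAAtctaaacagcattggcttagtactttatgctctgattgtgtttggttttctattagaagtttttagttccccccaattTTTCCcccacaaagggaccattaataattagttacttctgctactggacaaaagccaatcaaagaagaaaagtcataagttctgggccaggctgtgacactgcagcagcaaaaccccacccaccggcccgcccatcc
The Foxp3 window held 1 match and the Tnfrsf9 window 2. Promoters were listed for 6 of the 10 genes at 8 starts, and all 8 held GGAAA on either strand, which 55.6% of 32851 promoters did. A loose NF-kB pattern (3 G, 5 bases of any kind, 2 C, either strand) was found at 2 of the 8 starts and in 45.8% of all promoters, and in neither window shown. Those 2 were the start of Cd27, with 3 matches, and the second listed start of Tnfrsf9 (chr4:150927749-150927998). The latter window held 3 NF-kB and 3 GGAAA matches. Foxp3 also had a second listed start (chrX:7580233-7580482), with 0 NF-kB matches and 1 of GGAAA. A match is a description of these letters and does not show that a factor was bound.

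Tnfrsf18 encodes GITR, which regulatory T cells hold at high levels, and gave 26.7, 25.7 and 18.1 CPM in shNC and 20.3 and 24.6 CPM in shFgf21. Tnfrsf4 encodes OX40, another receptor of activated and regulatory T cells, and gave 24.3, 27.7 and 15.6 CPM in shNC and 20.8 and 29.7 CPM in shFgf21. Both genes overlapped between hairpins, with log2 fold changes of -0.09 ± 0.19 (edgeR adjusted p = 0.901) and 0.15 ± 0.25 (edgeR adjusted p = 0.868). Cd27, a receptor of naive and memory T cells that is lost on terminal differentiation, gave 12.2, 13.3 and 7.05 CPM in shNC and 8.29 and 6.96 CPM in shFgf21. Only shNC replicate 3 came between the shFgf21 libraries, and the log2 fold change was -0.53 ± 0.28 (-1.18 to 0.13; edgeR adjusted p = 0.538). Cd40lg, the ligand through which helper T cells license dendritic cells and B cells, had the fewest sorted counts, at 3.51, 2.74 and 1.56 CPM in shNC and 4.11 and 3.07 CPM in shFgf21. Its groups overlapped, with a log2 fold change of 0.45 ± 0.36 (edgeR adjusted p = 0.691).

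None of the 10 genes passed in sorted cells, in a comparison where edgeR called 0.079% of all genes. Unadjusted p was under 0.05 for 1 gene, Tnfrsf9, where 11.2% of all genes had such a p in either direction. With a lower level, 5.31% of all genes had one. DESeq2 called the same 1 gene of the set, among 246 calls over all genes. By sign, 6 were higher and 4 lower in shFgf21, where 48.2% of all genes were higher, with a median log2 fold change of 0.09 against -0.01 over all genes tested. The 3 CD28 family members had values above 0 and 3 of the 4 TNF receptor family members had values below 0.

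**Figure D2:**
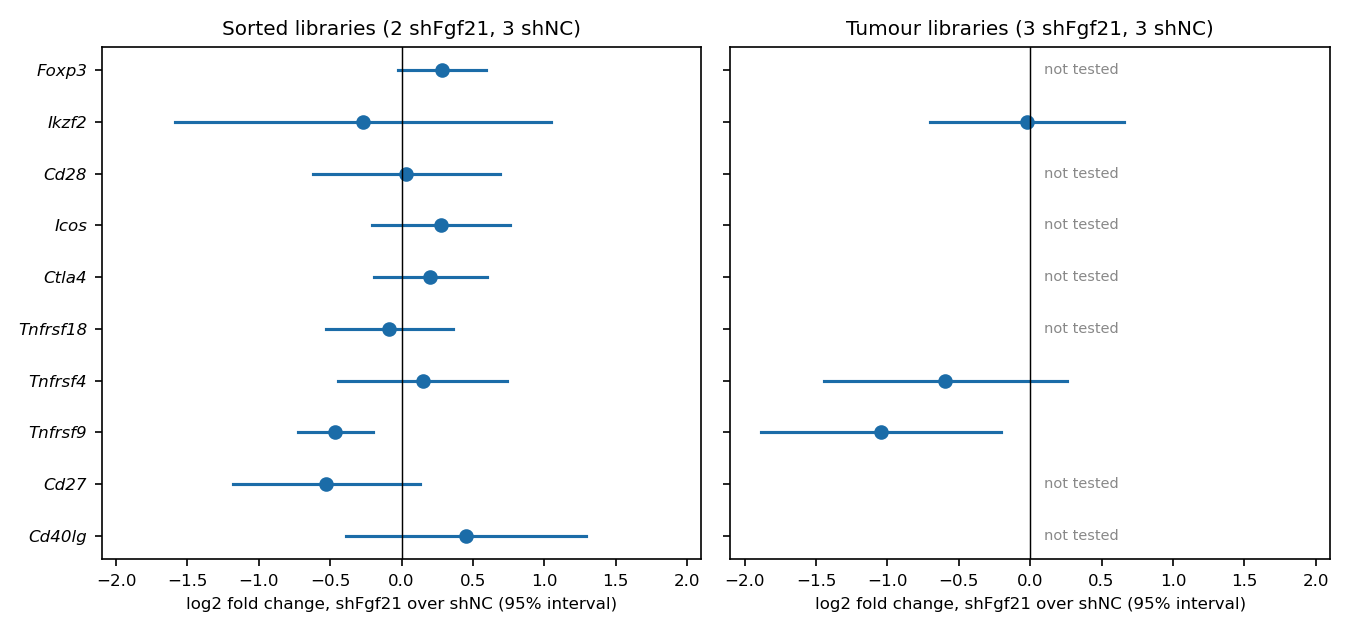
Log2 fold change of shFgf21 over shNC for each gene tested, with 95% intervals, in sorted cells (2 and 3 libraries) and in tumours (3 and 3). In sorted cells every interval but that of Tnfrsf9 crosses 0, and in tumours 3 of the 10 genes could be tested.

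The sorted libraries differed in CD3 level, so each gene was also set against the summed counts of the 3 CD3 chains. Foxp3 then stood at 10.5, 12.3 and 19.3 counts per 100 CD3 counts in shNC and 28.0 and 19.1 in shFgf21. The groups overlapped, since shNC replicate 3 was just above shFgf21 replicate 2 (log2 difference 0.77, exact permutation p = 0.4, two-sided). With 3 against 2 libraries the smallest p that test can give is 0.2, so it cannot reach the threshold for any gene.

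Ctla4 gave 21.4, 24.5 and 30.8 counts per 100 CD3 counts in shNC and 40.7 and 41.4 in shFgf21, a log2 difference of 0.70. Icos gave 16.6, 16.5 and 20.7 against 29.7 and 31.6, a difference of 0.78. Cd40lg gave 1.94, 1.78 and 1.69 against 4.66 and 2.78, a difference of 1.0. In all 3 both shFgf21 libraries were above every shNC library, as they were for Cd28 (0.59), Tnfrsf18 (0.42) and Tnfrsf4 (0.66), each with the smallest exact permutation p the design allows, 0.2. Tnfrsf9 (0.04), Cd27 (0.01) and Ikzf2 (-0.08) overlapped. That made 6 of 10 genes higher without overlap, where 18.6% of all genes were. The median log2 ratio difference over all 16454 genes was itself 0.49, against 0.62 over the 10 genes, so a shift of most of that size was shared by genes at large on this scale.

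**Figure D3:**
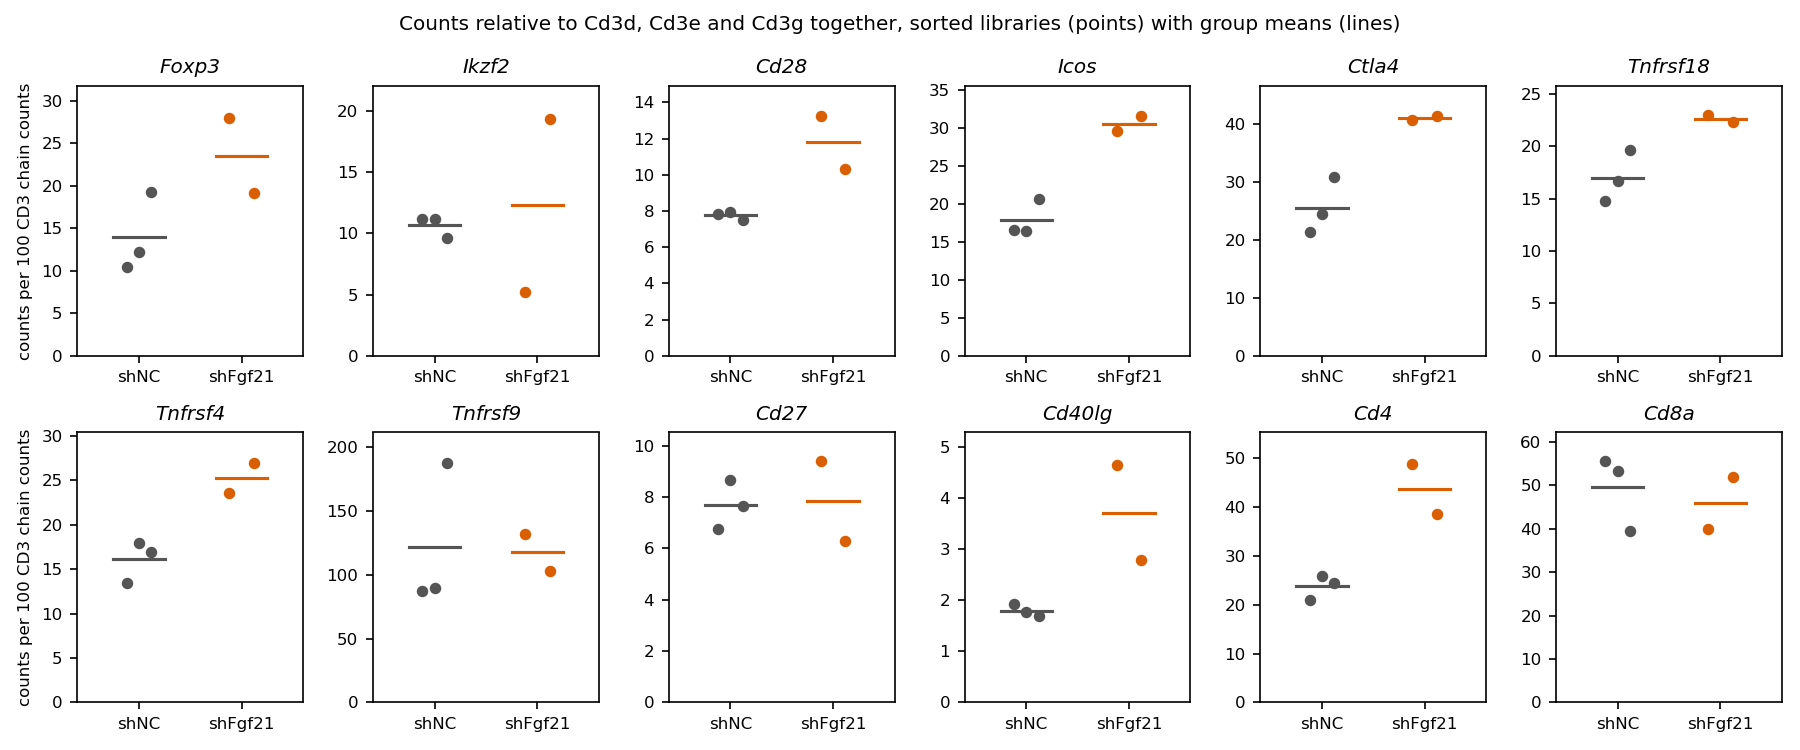
Counts of each gene per 100 counts of the CD3 chains in the 5 sorted libraries, with Cd4 and Cd8a beside them. Points are libraries, lines are group means and each axis starts at 0. The 2 shFgf21 libraries lie above the 3 shNC libraries for Cd28, Icos, Ctla4, Tnfrsf18, Tnfrsf4 and Cd40lg.

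Cd4 and Cd8a, the coreceptors of helper and cytotoxic T cells, differed in how they followed CD3. Cd4 gave 20.96, 25.9 and 24.3 counts per 100 CD3 counts in shNC and 48.8 and 38.6 in shFgf21, with no overlap (log2 difference 0.88, exact permutation p = 0.2). Cd8a gave 55.7, 53.3 and 39.5 in shNC and 40.0 and 51.8 in shFgf21, with the groups mixed. Ratios to Cd4 and to Cd8a were computed as well, both chosen after the values were seen. Foxp3 gave 50.1, 47.4 and 79.2 counts per 100 Cd4 counts in shNC and 57.3 and 49.5 in shFgf21, inside the shNC range (log2 difference -0.10, exact permutation p = 1). Against Cd8a its log2 difference was 0.88, also with overlap (exact permutation p = 0.4).

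A change of denominator shifts the difference of every gene by the same amount. These ratios therefore hold the same differences apart from that shift, and have to be read against all 16454 genes. Against Cd4, 4 of the 10 genes were lower without overlap, Cd28 (-0.29), Tnfrsf18 (-0.45), Tnfrsf9 (-0.84) and Cd27 (-0.86), where 35.5% of all genes were. None was higher without overlap, where 0.535% of all genes were. The median difference was -0.25 over the 10 genes and -0.39 over all genes. Against Cd8a, 5 of the 10 were higher without overlap, Cd28 (0.70), Icos (0.88), Ctla4 (0.80), Tnfrsf4 (0.76) and Cd40lg (1.102), where 5.52% of all genes were, with medians of 0.73 over the 10 genes and 0.59 over all. The sign of a ratio was therefore set in large part by the denominator, and 8 of the 10 genes were above 0 against CD3 and below 0 against Cd4. Ikzf2 was below 0 against both, and Cd40lg above 0 against both.

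Levels of different genes were compared in the authors' FPKM, which divide by a fixed length per gene. Over the 5 sorted libraries Tnfrsf9 led at 31.0 ± 6.51 FPKM (SD, n = 5), above Ctla4 at 12.1, Tnfrsf4 at 10.96, Icos at 7.26 and Tnfrsf18 at 5.65 FPKM. Cd40lg (2.26), Cd27 (2.15), Foxp3 (1.62), Cd28 (1.57) and Ikzf2 (0.787 FPKM) followed. Neighbours in this order overlapped in range except at 2 steps, between Tnfrsf9 and Ctla4 and between Tnfrsf18 and Cd40lg. Both transcription factors were thus among the low genes. The length behind the FPKM runs from 1250 bases for Cd40lg to 11774 for Foxp3 and 17291 for Ikzf2, and long untranslated or alternative exons counted in a length lower the FPKM of that gene.

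**Figure D4:**
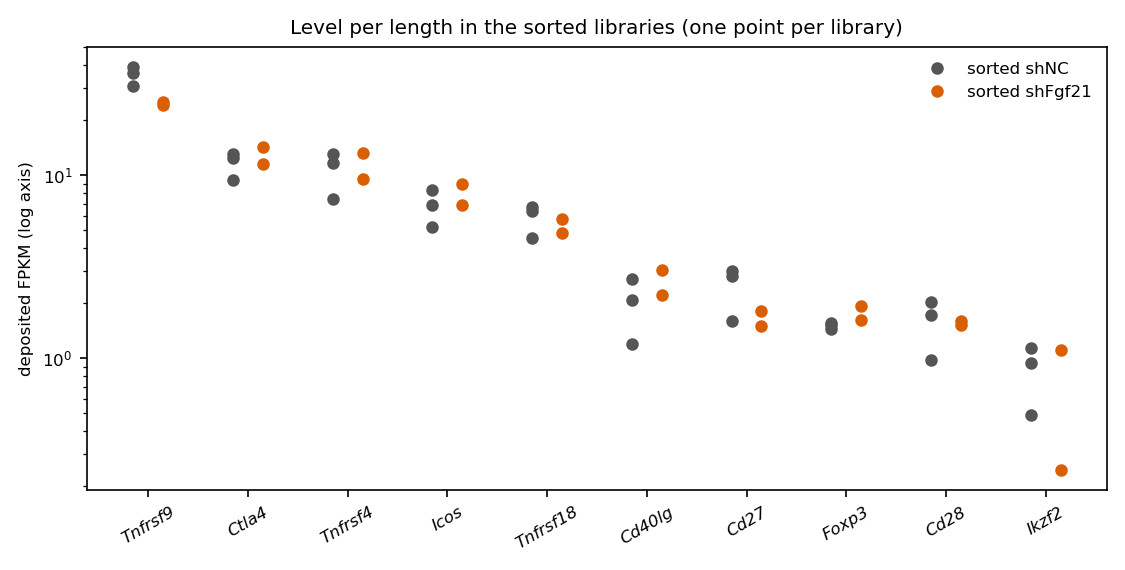
Authors' FPKM of the 10 genes in the 5 sorted libraries, ordered by mean, on a log axis. Points are libraries, by hairpin. Tnfrsf9 stands above the rest, and Cd40lg, Cd27, Foxp3 and Cd28 overlap.

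For Foxp3, Ctla4 and Tnfrsf9 the genes with the most similar pattern over the 5 sorted libraries were ranked by the root mean square difference of centred log2 CPM, among 10252 genes. Nearest to Foxp3 were Cdv3 (0.025), Gm14292 (0.032) and Zmiz1 (0.040). Nearest to Ctla4 were Manf (0.030), Ifi207 (0.043) and Sirt2 (0.050). Nearest to Tnfrsf9 were Raph1 (0.043), Milr1 (0.054) and Cubn (0.060). With 5 points such likeness is a description of these libraries.

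The tumour libraries split the set. Cd28, Icos, Ctla4 and Cd40lg had 0 counts in all 6, which over a group allows up to 0.0535 CPM in shNC and 0.0592 CPM in shFgf21. Against that limit of 3 counts per group, sorted cells were at least 650-fold higher for Ctla4, 462-fold for Icos, 206-fold for Cd28 and 48.1-fold for Cd40lg in shNC, and at least 690, 517, 195 and 60.5-fold higher in shFgf21. Cd27 had 2 counts over the 3 shNC tumours and 7 over the shFgf21 tumours. Its shNC level was 301-fold higher in sorted cells, with a counting interval of 82.8 to 2491.

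Tnfrsf9 and Ikzf2 kept clear levels in the tumour libraries, where T cell RNA was almost absent. How much of their sorted counts came from such cells was not tested. Tnfrsf9 gave 46.1, 20.4 and 17.3 CPM in shNC tumours and 10.9, 12.8 and 16.9 CPM in shFgf21 tumours, while Camta1, the gene around it, had 1380 counts over the 6 tumours against 914 over the 5 sorted libraries. Ikzf2 gave 7.15, 7.27 and 3.52 CPM in shNC and 5.67, 6.41 and 5.66 CPM in shFgf21 tumours. Foxp3 (0.174 to 0.503 CPM), Tnfrsf18 (0.174 to 0.704 CPM) and Tnfrsf4 (0.636 to 1.17 CPM) were low but counted in every tumour library. The 18 T cell identity genes summed to 3.92 to 17.5 CPM in shNC and 1.93 to 2.49 CPM in shFgf21 tumours, with Cd3e at 0 throughout.

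Between sorted and tumour shNC libraries, edgeR called 19.1% of genes higher in sorted cells. All 10 genes of the set were called higher there. Tnfrsf9 was higher by a log2 fold change of 2.50 ± 0.35 (edgeR adjusted p = 0.00114) and Tnfrsf4 by 4.48 ± 0.32 (edgeR adjusted p = 2.25e-05). Ikzf2 was higher by 1.37 ± 0.38 (edgeR adjusted p = 0.0268), a call lost without sorted shNC replicate 1 (adjusted p = 0.0989) or 2 (0.0930) or tumour shNC replicate 6 (0.0722). In shFgf21, where 22.7% of all genes were called higher, 9 of the 10 were. Ikzf2 was the exception, at 1.16 ± 0.51 (edgeR adjusted p = 0.112), and it came to 1.88 and a call without sorted replicate 1 (adjusted p = 0.00123) and to -0.34 without replicate 2. A gene that is near 0 in tumours enters these tests through its sorted level and had to differ.

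Within tumours, 3 of the 10 genes passed the filter on low counts, and none was called by edgeR or DESeq2, where edgeR called 0.0334% of all genes. Tnfrsf9 was lower in every shFgf21 tumour than in any shNC tumour, at a log2 fold change of -1.05 ± 0.37 (-1.89 to -0.21; edgeR unadjusted p = 0.0202, adjusted p = 0.690). It was the 1 member with an unadjusted p under 0.05. Of the 14950 genes tested, 930 had such a p in either direction, and 3.61% had one with a lower level. Without shNC replicate 1 the Tnfrsf9 value was -0.47. Tnfrsf4 was also lower without overlap (-0.59 ± 0.37, edgeR adjusted p = 0.881), and Ikzf2 was not (-0.02 ± 0.30, edgeR adjusted p = 0.996). Over all genes tested in tumours, 6.18% were lower without overlap. The summed T cell identity genes were lower in shFgf21 as well. In the shNC tumour libraries 1 gene, Thy1, held most of that sum, with 344 counts against 26 over the shFgf21 ones. Lck had 72 and 35, whereas Trac had 10 and 11. The part of T cells in these values was not tested. Foxp3 counts were 6, 10 and 10 in the shNC and 3, 3 and 4 in the shFgf21 tumours, which left it under the filter; with no filter its log2 fold change was -1.21 ± 0.56 (edgeR adjusted p = 0.788).

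An interaction term asked whether the knockdown effect was the same in both kinds of library, and edgeR called 0.00577% of all genes there. No gene of the set passed by edgeR or DESeq2. For Cd28, Icos, Ctla4 and Cd40lg, at 0 in every tumour library, no interaction could be estimated, and Foxp3, Tnfrsf18 and Cd27 entered this test through their sorted level. Foxp3 gave 1.498 ± 0.34 (edgeR unadjusted p = 0.00272, adjusted p = 0.797) and Cd27 gave -2.25 ± 0.91 (edgeR unadjusted p = 0.0301, adjusted p = 1.0), both resting on tumour counts of at most 10 per library. Those were the 2 members with an unadjusted p under 0.05, against 2.89% of all genes with such a p above 0 and 1.88% below. For Tnfrsf9, lower with shFgf21 in both kinds of library, the interaction was 0.59 ± 0.45 (-0.40 to 1.58; edgeR adjusted p = 1.0).

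Other genes of the pathway gave no calls in sorted cells by edgeR. Of 28 further genes of the regulatory T cell programme, 26 were tested, 19 were higher and 7 lower in shFgf21, with a median log2 fold change of 0.12. Over all genes tested, 48.2% were higher and the median was -0.01. An unadjusted p under 0.05 was found for 5 of the 26, against 11.2% of all genes. Entpd1, the ectonucleotidase CD39, went from a mean of 104.9 to 156 CPM (log2 fold change 0.57 ± 0.10, edgeR adjusted p = 0.149). Ebi3, a subunit shared by the cytokines IL-27 and IL-35, went from 22.0 to 37.0 CPM (0.75 ± 0.17, edgeR adjusted p = 0.207). DESeq2 called both, with adjusted p of 0.00147 and 0.0124, among 246 calls over all 16454 genes tested, where edgeR called 13. Il1rl1, the IL-33 receptor of tissue regulatory T cells and innate lymphoid cells, had 0.28 ± 0.11 (edgeR adjusted p = 0.416). Its level was higher in the tumour libraries, where leukocyte RNA was almost absent. Mean tumour values were 135 CPM (shNC) and 213 CPM (shFgf21), against sorted means of 66.6 and 81.9 CPM. How much of the sorted Il1rl1 came from tumour cells was not tested. Areg, a repair factor of the EGF family, had -0.66 ± 0.27 (edgeR adjusted p = 0.423). Macrophages also make CD39 and EBI3, and the macrophage genes were higher in the same libraries; their part in these values was not tested.

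Of 8 ligands of the receptors, 6 were tested, with 4 higher, 2 lower and a median of 0.20. Of these 6, 2 had an unadjusted p under 0.05, where 11.2% of all genes did. Cd86, the ligand of CD28 and CTLA-4 on antigen-presenting cells, had 0.33 ± 0.10 (edgeR adjusted p = 0.308) and Tnfsf9, the ligand of 4-1BB, had -0.30 ± 0.12 (edgeR adjusted p = 0.422). Cd40 (0.29 ± 0.14) and Cd80 (-0.16 ± 0.15) had edgeR adjusted p of 0.507 and 0.747. Tnfrsf9 and its ligand thus both had lower values in the shFgf21 libraries, and edgeR called neither, while DESeq2 called Tnfrsf9.

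Of 22 signalling genes downstream of the receptors, 17 were higher and 5 lower, with a median of 0.15. An unadjusted p under 0.05 was found for 3 of the 22, near the 11.2% of all genes. Traf3, an adaptor that restrains the alternative NF-kB pathway, had 0.57 ± 0.13 (edgeR adjusted p = 0.235), Nfkb2, the alternative pathway's own subunit, had 0.42 ± 0.10 (edgeR adjusted p = 0.241), and Nfkb1 had 0.28 ± 0.13 (edgeR adjusted p = 0.464). Prkcq, the kinase that carries the CD28 signal in T cells, had -0.70 ± 0.29 (edgeR adjusted p = 0.426). DESeq2 called Traf3 (adjusted p = 0.0441) and Nfkb2 (0.0223), among its 246 calls over all genes. Of 11 other costimulatory or inhibitory receptors, 6 were higher and 5 lower, with a median of 0.15, and 2 had an unadjusted p under 0.05, against the same 11.2%. Slamf6, a receptor of less differentiated T cells, had 0.59 ± 0.16 (edgeR adjusted p = 0.282), Tnfrsf14, the receptor HVEM, had 0.66 ± 0.25 (0.399), Cd96 had -0.66 ± 0.33 (0.508) and Cd2 had 0.15 ± 0.16 (0.763). None of these 4 lists held a gene called by edgeR, and 14 of the 18 T cell identity genes were lower in the same comparison.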

How the data were processed

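For each of 11 libraries the authors deposited raw gene counts and FPKM on mm10, per the submitters' processing notes; the sources used here name no aligner, counting program or annotation release. The deposited FPKM equal counts divided by a fixed gene length and the library total, so they were used only to order genes. The 10 genes and all lists were chosen with earlier results of these data known.

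Counts were tested in R 4.3.3 with edgeR 4.0.16 on all genes kept by filterByExpr: TMM scaling, the quasi-likelihood F-test, Benjamini-Hochberg adjustment over all genes tested and a threshold of 0.05. Fold changes are log2 of shFgf21 over shNC or of sorted over tumour, and SE is the fold change over the square root of F. CPM per library use TMM over the 11 libraries. Ratios to CD3 counts used a pseudocount of 0.5 and an exact permutation test. Alternatives were median-ratio scaling, other filters, DESeq2 1.42.0, 1 fit of all 4 groups, the title number as a block, and leaving out each library; a fit with the CD3 level as covariate was added after seeing the data. The edgeR tests were first run on simulated counts. The text names up to 4 genes per pathway list at a mean of at least 10 CPM in sorted libraries, by smallest p, none having passed by edgeR. Library totals of 14944013 to 19099350 counts set the precision. GENCODE M21 gave the same coordinates for 10 of 10 genes.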

Additional observations from a re-analysis of the deposited data

How the results depend on the processing

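In sorted cells edgeR called 13 genes of all tested, against 1 with no filter on low counts, 1 with all 4 groups in one fit, 1 with the CD3 level as a covariate, 246 by DESeq2 (1 of them in the set, Tnfrsf9) and 0 to 34 with a library left out. In tumours 5 calls became 1 at a mean of at least 5 CPM, 26 with all 4 groups in one fit, 115 by DESeq2 and 0 to 8 with a library left out; without a filter there were 7. The interaction gave 1 call, 4 with no filter, 0 at the 5 CPM mean, 33 by DESeq2 and 0 to 4 with a library left out, and sorted against tumour in shFgf21 gave 5808, or 2868 to 7052. Tumour libraries share title numbers 1 and 2 only. Same-number deviations correlated at 0.165 and -0.153, and those of different numbers at -0.251 to 0.165. With 2 such pairs these values cannot decide whether the numbers pair samples. With the number as a replicate block 131 genes were called, 1 of them in the set (Tnfrsf9, -1.38, adjusted p = 0.0157 by edgeR). In that fit only the libraries numbered 1 and 2 inform the hairpin difference, and little is left to estimate the spread. No paired analysis was possible in sorted cells because their numbers follow accession order.

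With the CD3 covariate, sorted log2 fold changes turned to 0.60 for Ikzf2, 0.27 for Tnfrsf18 and 0.026 for Cd96. Leaving out a library moved sorted values across 0 for Ikzf2 (-1.75 to 0.45), Tnfrsf18 (-0.25 to 0.045), Cd28 (-0.22 to 0.25) and Tnfrsf4 (-0.13 to 0.38), and Ikzf2 in tumours (-0.28 to 0.15), in the interaction (-1.73 to 0.48) and between sorted cells and tumours in shFgf21 (-0.34 to 1.88). None of these was a call except the last without sorted replicate 1. Ratios per T cell identity count instead of CD3 were -0.17 for Tnfrsf9 and -0.20 for Cd27; with a library left out the CD3 ratios ran from -0.15 to 0.40 for Tnfrsf9, -0.27 to 0.30 for Cd27 and -1.01 to 0.86 for Ikzf2. Scaling by library totals gave 17.9 CPM for Foxp3 in sorted shNC, and 10.6 for Cd28 and 105 for Tnfrsf9 in sorted shFgf21. The causes were not tested. Depth limits Foxp3, Tnfrsf18 and Cd27 in tumours, at 0 to 14 counts per library.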

Other observations

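Beyond the genes whose nearest patterns the rule asked for, and so chosen after their values were seen, Cd28 lay nearest over the 5 sorted libraries to Il2ra, the high-affinity IL-2 receptor chain of regulatory and activated T cells (root mean square difference 0.046), then to Satb1 (0.048), a chromatin organiser of T cells, and Nr4a2 (0.050). Tnfrsf18 lay nearest to P2ry10 (0.048) and Rac2 (0.058). Tnfrsf4 lay nearest to Limd2 (0.054), Gpr132 (0.065) and Lax1 (0.071). Ikzf2 had no close neighbour: its nearest gene, Prkab2, was at 0.402.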
